A study of Mus musculus with 9 samples.

Results

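Oxidative phosphorylation is carried out by 5 protein complexes of the inner mitochondrial membrane. Complex I (NADH dehydrogenase) and complex II (succinate dehydrogenase) feed electrons into the chain, complex III (cytochrome bc1) and complex IV (cytochrome c oxidase) pass them to oxygen, and complex V (ATP synthase) makes ATP from the proton gradient. The subunits come from separate genomes: most are nuclear genes whose proteins are imported, while 13 are encoded by mitochondrial DNA and transcribed inside the organelle as long polycistronic RNAs, so complexes I, III, IV and V are assembled from both and complex II from nuclear subunits alone. Endothelial cells are known for relying largely on glycolysis for ATP. Their respiratory chain is best known for other tasks, such as oxidising NADH and supplying precursors for proliferation.

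The members were taken by gene symbol: the Nduf, Sdh, Uqcr, Cox and Atp5 subunit series and the mitochondrially encoded subunits, without symbols marked as pseudogenes. The rule found 99 of the 41214 features in the table, 86 nuclear and 13 mitochondrially encoded. The nuclear members were 40 of complex I, 4 of complex II, 8 of complex III, 17 of complex IV and 17 of complex V. The mitochondrial ones were 7 of complex I, 1 of complex III, 3 of complex IV and 2 of complex V. The annotation gave 95 of the 99 as protein coding, and 1 (Cox6c2) had no count in any library. After a filter on low counts 92 members were tested, 79 nuclear and 13 mitochondrial; the 7 left out were Ndufa11b, Ndufs6b, Cox6a2, Cox6c2, Cox7b2, Cox8b and Cox8c. Cox4i1, Ndufab1, Cyc1 and a few other subunits and carriers have symbols outside the rule and were kept as a separate list.

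The study sorted endothelial cells from the ventricles of mouse hearts at E17.5 (embryonic day; the sample labels write E17). All embryos carried R26(tom/+), a Cre-dependent Tomato reporter, with Nes-CreER(Tg/0) and Nes-Gfp(Tg/0), transgenes whose names give a Nestin driver for the inducible Cre and the green reporter. All had received 0.1 ug tamoxifen at E15.5, so no library came from an untreated or non-transgenic heart. Viable cells negative for Ter119 and CD45 and positive for CD31 and GFP made up each sort. The arterial-enriched coronary population (arteries and capillaries) was in addition Emcn-low and Tomato-positive, the venous-enriched coronary population was Emcn-low, Tomato-negative and GFP-low, and the gate written for the endocardial population names no Emcn or Tomato condition. Each population had 3 libraries, numbered by batch, and the labels do not say whether the 3 came from separate litters or pools, so p-values measure the spread between these samples, which may be technical. The comparison asks how the lining of the ventricle and the 2 kinds of coronary endothelium differ.

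Library totals ran from 12750553 to 19474419 expected counts. Genes with counts numbered 21221, 19610 and 20359 in arterial replicates 1, 2 and 3 and 19755, 19299 and 18462 in venous ones. In endocardial replicates 1, 2 and 3 they numbered 21101, 17337 and 17130, so replicates 2 and 3 were the lowest of all libraries. The part of this in the results was not tested. All 11 endothelial markers had counts in every library. Summed markers of other cells moved with the populations: cardiomyocyte markers came to 299 to 429.9 counts per 1000000 (CPM) in arterial, 444 to 609 in venous and 554 to 656 in endocardial libraries. Of the 20 cardiomyocyte markers 18 had counts in every library, while Nppa and Nppb were below 1 CPM throughout. Fibroblast markers came to 183 to 205, 1527 to 1805 and 1784 to 2349 CPM, and mural cell markers to 541 to 849.5, 242 to 348 and 85 to 154 CPM in the same order. Erythroid markers came to 536 to 1209.5, 226 to 381 and 72.4 to 241 CPM in that order. The sums need not hold for each listed gene: the mural marker Pdgfrb was lower in arterial than in endocardial libraries, against its sum. In sorted pools such as these, fewer cells of a type, less RNA per cell and expression by the sorted endothelial cells themselves cannot be told apart.

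Some mitochondrial members have near-identical copies in a block of unprocessed pseudogenes on chromosome 1, and reads from a stretch where the pair does not differ cannot be assigned to one or the other from their sequence. The opening stretches of mt-Nd3 and mt-Atp6 and of their copies are shown because the counts of these genes turn on them. Coordinates are GRCm38 with GENCODE M21 models. The mt-Nd3 stretch is chrM:9459-9518, plus strand and its copy is chr1:24613060-24613119, minus strand; the mt-Atp6 stretch is chrM:7927-7986, plus strand and its copy is chr1:24614592-24614651, minus strand. Capitals mark a base that differs within the pair.
mt-Nd3: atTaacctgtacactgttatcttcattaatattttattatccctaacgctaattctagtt
Gm28438: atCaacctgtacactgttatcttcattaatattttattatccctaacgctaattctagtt
mt-Atp6: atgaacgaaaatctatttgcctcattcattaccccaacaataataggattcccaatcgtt
Gm10925: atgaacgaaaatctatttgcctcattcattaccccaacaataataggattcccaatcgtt
Over the 345 bases shared by mt-Nd3 and Gm28438 the single difference was T3C, counted from 1 at the first base of mt-Nd3. Over the 678 bases shared by mt-Atp6 and Gm10925 there was no difference, and mt-Co2 with Gm28661 (681 bases) and mt-Co3 with Gm28437 (783 bases) had none either. The mt-Co1 copy Gm29216 differed at 6 of 492 shared bases.

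The deposited counts divided these pairs unevenly. Over the 9 libraries mt-Atp6, which encodes the proton-channel subunit a of ATP synthase, held 15482 counts and its copy 708020. mt-Co2, the copper-binding subunit that takes electrons from cytochrome c, held 183958 and its copy 106502. mt-Co3 held 83308 against 21359, and mt-Nd3, a membrane subunit of complex I, 9499 against 18909. As deposited, mt-Nd3 was at 0, 0 and 157 CPM in arterial replicates 1, 2 and 3, 0, 246 and 0 CPM in venous and 189.6, 0 and 59.3 CPM in endocardial, so it was listed at 0 in 5 libraries. With its copy summed it was at 142, 147 and 162 CPM in arterial replicates 1, 2 and 3, 225, 259 and 152 CPM in venous and 189.6, 282 and 291 CPM in endocardial. The sum lay between 142 and 291 CPM in all 9, with no library near 0. For mt-Nd4 and mt-Nd4l the identical copies held no counts, and mt-Nd1, mt-Nd6, mt-Cytb and mt-Atp8 had no such copy by the criteria used. Values of the affected members are therefore given with the copy summed, an alternative added after the data were seen, beside the deposited ones. The nuclear pair Ndufb4 and Ndufb4c, identical over 390 bases, held 1305 and 3733 counts and is uncertain for the same reason.

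**Figure D1:**
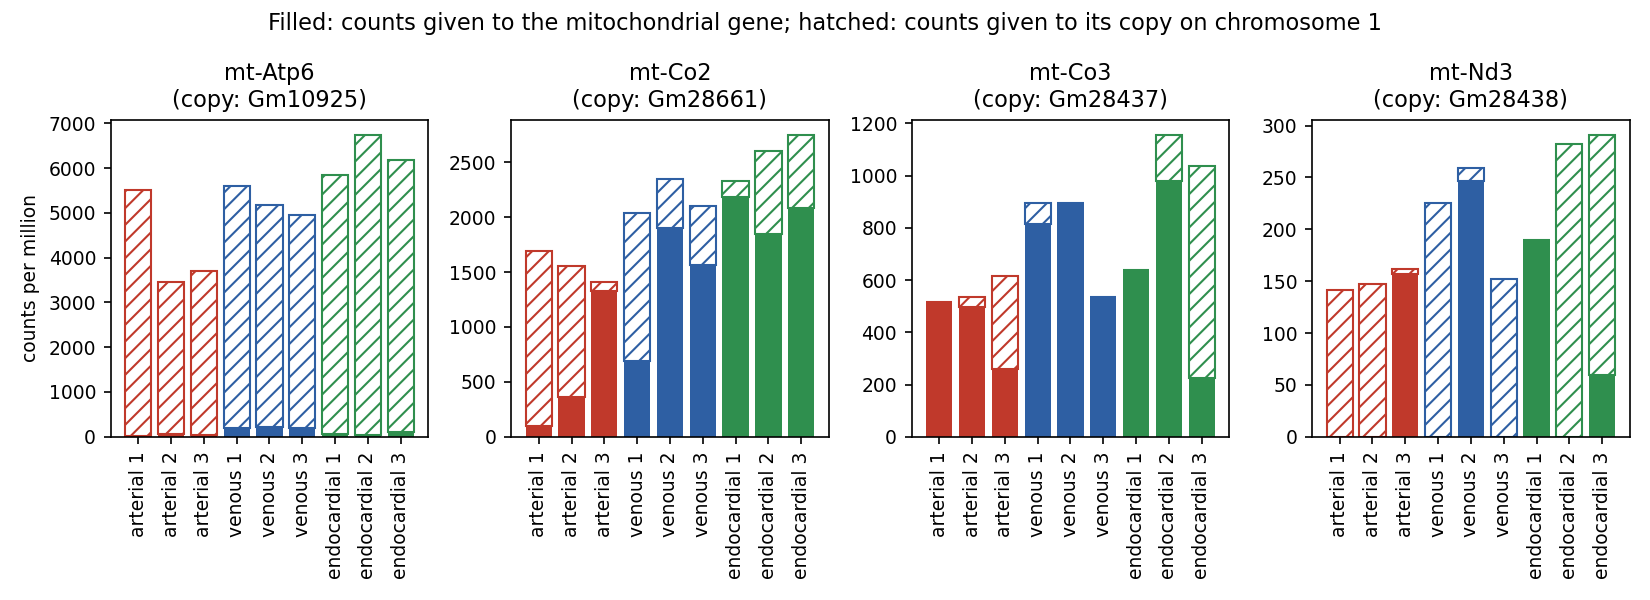
CPM (y axis) in each of the 9 libraries (x axis) for mt-Atp6, mt-Co2, mt-Co3 and mt-Nd3; filled bars are counts given to the mitochondrial gene and hatched bars counts given to its chromosome 1 copy. Almost all mt-Atp6 counts stood with the copy, and the division changed from library to library for the other genes while the summed height varied much less.

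The nuclear members are widely studied as targets of NRF1 and of the ETS factor GABPA. RefSeq promoters (250 bases before to 50 after the start, GRCm38.p6) matched 66 of the 86 nuclear members. The palindromic 10-letter core of the NRF1 site, in capitals in the first 2 windows that follow and the same on both strands, stood in 5 of the 66 promoters (7.58%) and in 1.07% of 27025 genes. The letters CCGGAAG, an ETS site searched on both strands, stood in 16 of the 66 (24.24%) and in 9.93% of all genes. The motifs share no letters that could make 1 match count as both, but the promoters of Cox6a1 and Atp5k held each of them. Windows from 4 promoters are shown because these genes recur in the results, with the match in capitals and the gene's own strand printed; all lie upstream of a RefSeq start of the gene.
Atp5g2 (chr15:102671070-102671099, minus strand): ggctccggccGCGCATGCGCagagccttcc
Cox6a1 (chr5:115349101-115349130, minus strand): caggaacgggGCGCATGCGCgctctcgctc
Atp5j (chr16:84835021-84835047, minus strand): gctgagggacCCGGAAGcacttaccct
Cox6b1 (chr7:30626126-30626152, minus strand): cctctcgcagCTTCCGGccagtcggaa
The first 2 hold the NRF1 letters and the last 2 the ETS letters. Atp5j has 2 RefSeq starts in the table used. The window lies upstream of the one 148 bases from the start of Gabpa, which is transcribed the other way, and downstream of the other, which lies past the start of Gabpa. Between endocardial and coronary libraries the 16 members with the ETS letters had a median log2 difference of -0.17 and the 48 tested members without them -0.22.

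Per kilobase of merged exons, mitochondrial members stood far above nuclear ones. Merged exons join all annotated transcripts of a gene and can exceed the length of a single transcript. The values and ranks of nuclear members that follow therefore depend on the annotation. The mean over libraries ran from 591 CPM per kb (mt-Nd3) to 9092 (mt-Nd4l) among the 13 mitochondrial members with copies summed, with a median of 2719. Among the 86 nuclear members the median was 27.1 CPM per kb and the highest was Cox6a1 at 235, followed by Uqcrb of complex III at 225. Only 9 nuclear members passed 100 CPM per kb, 4 of them in complex V and 4 in complex IV. Of complex V these included the core of the catalytic F1 part, Atp5c1 at 137, Atp5a1 at 112 and Atp5b at 108. Complex I had the lowest nuclear median of the complexes, at 20.9 CPM per kb, with Ndufb11 highest at 81.1.

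Subunits with muscle or other tissue-restricted isoforms were present as the common form. Cox6a1 was at 170.0, 124 and 143 CPM in arterial replicates 1, 2 and 3, 182, 173 and 226 CPM in venous and 114, 168 and 182 CPM in endocardial, and its heart and muscle counterpart Cox6a2 was listed at 0 in all libraries but venous replicate 2 (0.739 CPM). Cox8a was at 55.8, 43.5 and 39 CPM in arterial replicates 1, 2 and 3, 64.1, 50.3 and 52.4 CPM in venous and 33.3, 53.4 and 42.8 CPM in endocardial, against at most 1.42 CPM for the muscle form Cox8b in any library. Cox7a1, the muscle form of subunit 7a, lay between 0.514 and 2.54 CPM, and Cox7a2 between 64.4 and 125. Cox6a2, Cox7a1 and Cox8b are known as forms of adult heart muscle, and their use in the E17.5 heart was not examined here. Their levels are therefore no measure of heart muscle RNA in these libraries. The part of other cells in the results was not tested. The testis forms Cox6b2, Cox7b2 and Cox8c did not exceed 1.53 CPM in any library, while the common Cox6b1 lay between 46.8 and 81.9.

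The 3 genes for the same c-ring protein of ATP synthase were all present. Atp5g1 lay between 29.3 and 46.6 CPM and Atp5g3 between 25.6 and 49.8. Atp5g2 was at 25.4, 56 and 57 CPM in arterial replicates 1, 2 and 3, 39.7, 132 and 129 CPM in venous and 21.1, 107 and 97.2 CPM in endocardial. All 3 libraries of replicate 1 were below all 6 others, and the replicate number is the batch number, so the batch moved with this gene's level in every population.

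In their summed shares of counts, nuclear and mitochondrial members differed in opposite directions between endocardial and coronary libraries. In percent of all counts, nuclear members took 0.672, 0.535 and 0.492 in arterial replicates 1, 2 and 3, 0.648, 0.576 and 0.647 in venous and 0.462, 0.467 and 0.48 in endocardial. The endocardial libraries were below all 6 coronary ones, though arterial replicate 3 was close. Gene by gene, the nuclear median log2 difference was 0.10 for arterial minus endocardial and 0.34 for venous minus endocardial. Over all genes these medians were 0.01 and -0.10. Within batches the endocardial minus coronary nuclear median was uneven, as given below. Mitochondrial members with their copies took, in percent, 4.52, 3.12 and 3.22 in arterial replicates 1, 2 and 3, 4.41, 4.33 and 4.44 in venous and 4.91, 4.79 and 4.79 in endocardial, and here the endocardial libraries were above all 6. Within a library, where the scaling between libraries plays no part, mitochondrial counts were 6.73, 5.84 and 6.54 in arterial replicates 1, 2 and 3, 6.81, 7.51 and 6.86 in venous and 10.6, 10.2 and 9.98 in endocardial times the nuclear counts. The ratio averaged 10.3 ± 0.333 in endocardial (SD, n = 3), 6.37 ± 0.467 in arterial and 7.06 ± 0.395 in venous libraries. In each batch the endocardial library was above both coronary libraries, and the populations did not overlap. As deposited, without the copies, the ratio was 8.46 to 9.31 in endocardial, 4.91 to 5.69 in arterial and 5.71 to 6.57 in venous libraries.

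**Figure D2:**
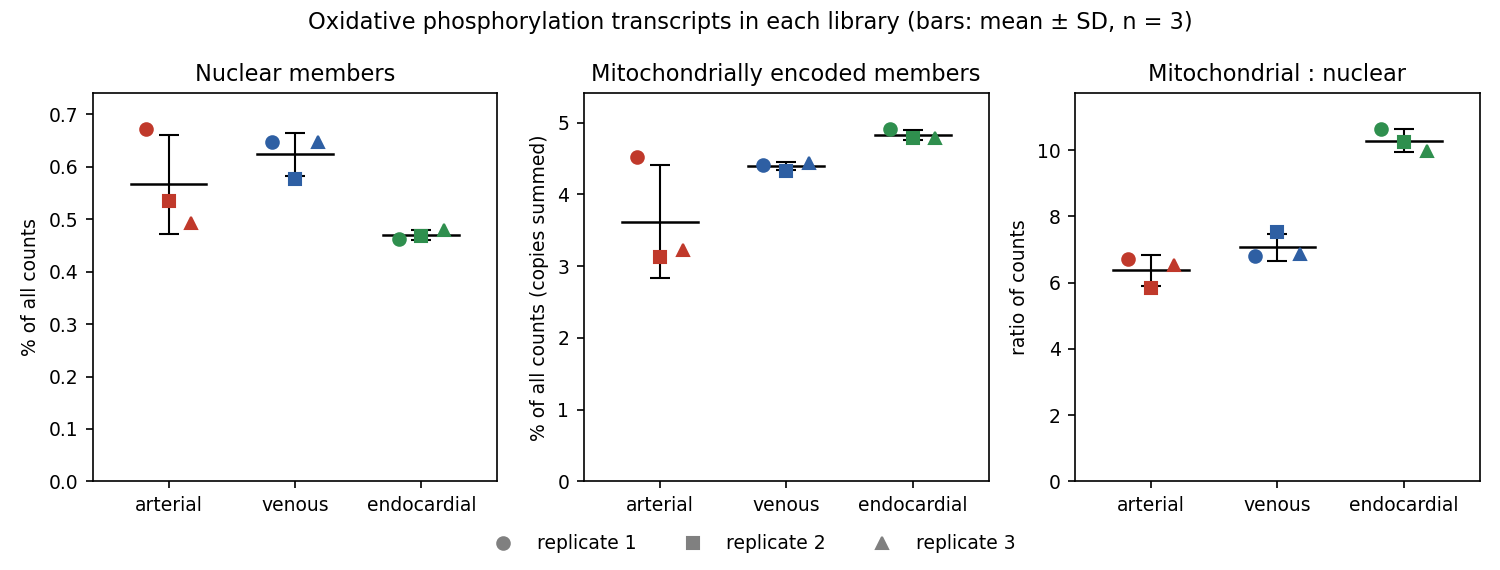
Share of all counts held by the nuclear members (left, percent), by the mitochondrial members with copies summed (middle, percent) and the ratio of the second to the first (right) in each library; points are libraries, marked by replicate, and lines with bars are means ± SD of 3. The endocardial libraries are lowest in the left panel and highest in the other 2, and arterial replicate 1 stands above arterial replicates 2 and 3 in the left and middle panels.

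The ratio was higher in endocardial libraries within each complex assembled from both genomes. For complex I it was 8.45, 7.33 and 7.95 in arterial replicates 1, 2 and 3, 8.44, 8.76 and 9.54 in venous and 13.9, 13 and 12.7 in endocardial. For complex III it was 11.4 to 13.1 in endocardial, 6.83 to 9.01 in arterial and 8.34 to 9.86 in venous libraries. For complex IV the ranges were 16.3 to 19.8, 12 to 12.2 and 11.4 to 14.7, and for complex V 4.36 to 5.11, 2.22 to 2.97 and 2.64 to 3.09, in the same order. In none of the 4 did an endocardial library overlap a coronary one. The nuclear share was below every coronary library for complexes IV and V and overlapped for complexes I, II and III, while the mitochondrial share was above every coronary library for complexes I and V and overlapped for III and IV.

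Other RNA is given beside the ratio, and its part in the ratio was not tested. Mitochondrial ribosomal RNA overlapped between endocardial and coronary libraries, at 5.67 to 7.34 percent of counts in endocardial, 5.24 to 5.68 in arterial and 6.61 to 7.58 in venous libraries. The 20 mitosis genes summed to 1254 to 1459 CPM in endocardial, 2972 to 4350.0 in arterial and 3899 to 5211 in venous libraries. By edgeR, 17 of them were lower in the endocardial libraries at an adjusted p under 0.05, beside 7% of all genes tested. The noncoding transcript Gm42418, which overlaps ribosomal RNA sequence, took 5.66 to 11.1 percent of counts in endocardial, 3.3 to 8.67 in arterial and 4.13 to 8.73 in venous libraries. The 16 immediate-early genes, which respond within minutes to handling and other stimuli, summed to 3335 to 4228, 2423 to 2726 and 1996 to 2274 CPM in the same order.

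Gene by gene, 7 of the 92 tested members were called between endocardial and coronary libraries by edgeR's quasi-likelihood test (Benjamini-Hochberg adjusted p under 0.05 over 17103 genes), beside 13.9% of all genes tested. The 3 that rose in the endocardial libraries were mitochondrial and the 4 that fell were nuclear; of all genes 6.91% rose and 7% fell. The members' share of calls, 7 in 92, was thus below that of all genes. By genome, 3 of 13 mitochondrial members were called, a share above that of all genes. Of the nuclear members 4 of 79 were, a share below it. The median log2 difference was -0.22 over the 79 nuclear members and 0.38 over the 13 mitochondrial ones, against 0.08 over all genes. The endocardial libraries lay apart from all coronary ones for 5 nuclear members below (9.08% of all genes) and 1 above, and for 2 mitochondrial members above (8.57% of all genes). Of the nuclear members 60 of 79 were lower in endocardial libraries, and of the mitochondrial ones 12 of 13 were higher; over all genes 7786 of 17103 were lower. Within batches 1, 2 and 3 the nuclear median was -0.52, -0.08 and -0.02, so it was largest in batch 1, and the mitochondrial median was 0.21, 0.61 and 0.41. Lower in all 3 batches were 27 of the 79 nuclear members (34.2%, against 23% of all genes), and higher in all 3 were 10 of the 13 mitochondrial ones (76.9%, against 21.5%).

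The mitochondrial members called were core membrane subunits of complex I. mt-Nd1 (ENSMUSG00000064341, chrM:2751-3707), at the quinone end of the membrane arm, was at 630.4, 489 and 612 CPM in arterial replicates 1, 2 and 3, 831, 924 and 832 CPM in venous and 868, 1047 and 1080.5 CPM in endocardial. All endocardial libraries were above all arterial ones, and endocardial replicate 1 lay among the venous ones. The endocardial minus coronary difference was 0.50 (SE 0.13, adjusted p = 0.0126) on the log2 scale. mt-Nd4 (ENSMUSG00000064363, chrM:10167-11544), one of the proton-pumping subunits, was at 3749, 2496 and 2515 CPM in arterial replicates 1, 2 and 3, 3757, 3486 and 3074 CPM in venous and 4335, 4507 and 4695 CPM in endocardial; every endocardial library was above every coronary one, with a log2 difference of 0.51 (SE 0.14, adjusted p = 0.0169). mt-Nd4l (ENSMUSG00000065947, chrM:9877-10173), a small membrane subunit whose gene overlaps mt-Nd4, was at 2544, 1515 and 1887 CPM in arterial replicates 1, 2 and 3, 2591, 2427 and 3258 CPM in venous and 2805, 4035 and 3241 CPM in endocardial, with overlapping groups and a difference of 0.52 (SE 0.16, adjusted p = 0.044); with the batch as a block its adjusted p was 0.089. With copies summed, mt-Co2 (ENSMUSG00000064354, chrM:7013-7696) was called as well. It was at 1696, 1553 and 1413 CPM in arterial replicates 1, 2 and 3, 2035, 2346 and 2103 CPM in venous and 2332, 2601 and 2752 CPM in endocardial, and the log2 difference was 0.48 (SE 0.12, adjusted p = 0.00868), where the deposited counts gave 1.16 (SE 0.74, adjusted p = 0.431). All 13 mitochondrial members were then higher in the endocardial libraries, by 0.21 to 0.60, with 4 called (14% of all genes were, in either direction); mt-Atp6, at -0.36 as deposited, was at 0.41 (adjusted p = 0.062) with its copy.

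The nuclear members called came from complexes I, IV and V. Ndufb10 (ENSMUSG00000040048, chr17:24722060-24724478), an accessory subunit of the complex I membrane arm, was at 50.4, 35 and 27.1 CPM in arterial replicates 1, 2 and 3, 40, 40.1 and 32.6 CPM in venous and 20.4, 22.8 and 19.8 CPM in endocardial. No endocardial library reached a coronary one, and the endocardial minus coronary log2 difference was -0.84 (SE 0.23, adjusted p = 0.0191). Cox5a (ENSMUSG00000000088, chr9:57521274-57532426), a matrix-side subunit of complex IV, was at 80.1, 70.5 and 73.9 CPM in arterial replicates 1, 2 and 3, 106, 71.6 and 85.2 CPM in venous and 55.9, 51 and 53.4 CPM in endocardial, with no overlap and a difference of -0.60 (SE 0.17, adjusted p = 0.0225). Cox6b1 (ENSMUSG00000036751, chr7:30616861-30626151), a complex IV subunit on the intermembrane-space side, was at 66.3, 61.7 and 80.5 CPM in arterial replicates 1, 2 and 3, 81.9, 75.2 and 69.2 CPM in venous and 46.8, 54.1 and 48.8 CPM in endocardial, again without overlap, at -0.54 (SE 0.16, adjusted p = 0.0381). Atp5b (ENSMUSG00000025393, chr10:128083273-128090391), the catalytic beta subunit of ATP synthase, was at 481, 577 and 414 CPM in arterial replicates 1, 2 and 3, 518, 514 and 568 CPM in venous and 363, 283 and 410.2 CPM in endocardial; the highest endocardial library was just below the lowest coronary one and the difference was -0.54 (SE 0.15, adjusted p = 0.0225). Sdhb, the iron-sulfur subunit of succinate dehydrogenase, did not overlap either, at 58.4, 55 and 71.7 CPM in arterial replicates 1, 2 and 3, 67, 74.2 and 87.5 CPM in venous and 38, 50.1 and 54.6 CPM in endocardial, and its difference of -0.53 (SE 0.18, adjusted p = 0.0677) missed the threshold.

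**Figure D3:**
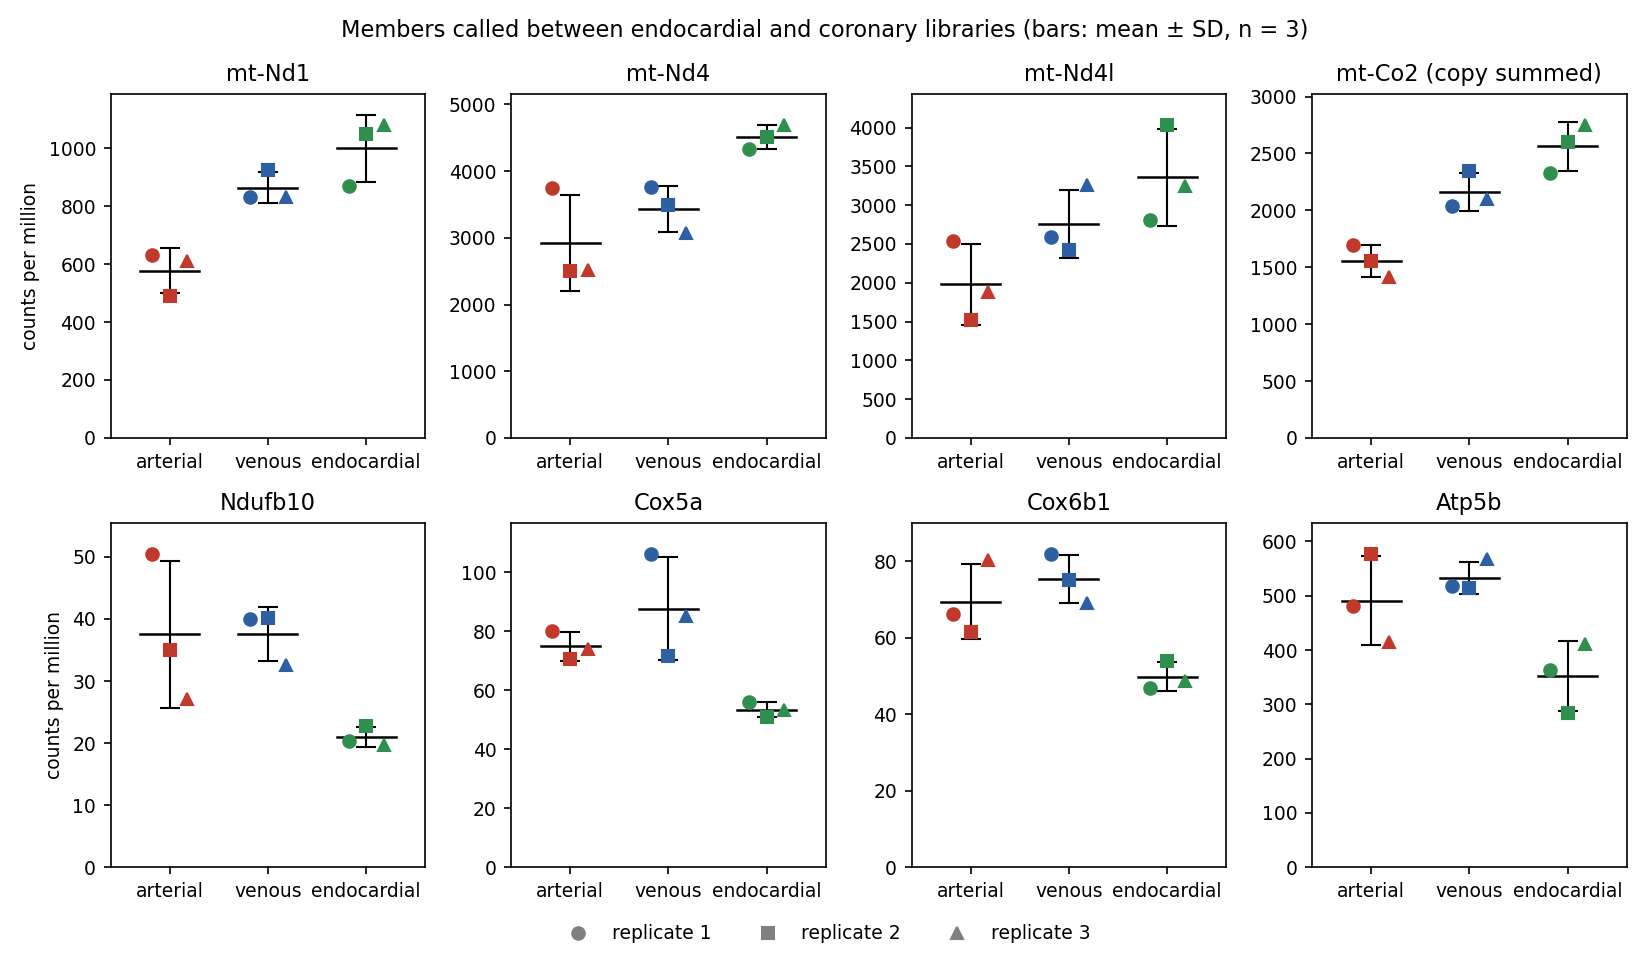
CPM (y axis, from 0) in each library for mt-Nd1, mt-Nd4, mt-Nd4l, mt-Co2 (copy summed), Ndufb10, Cox5a, Cox6b1 and Atp5b; points are libraries by replicate, lines with bars are means ± SD of 3. The mitochondrial genes of the upper row have their highest mean in endocardial libraries, and the nuclear genes of the lower row their lowest.

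With the batch as a block, 12 members were called in place of 7 (13% of the 92 tested, beside 15.9% of all genes under the same block), 8 of them nuclear and lower, 3 mitochondrial and higher, and Ndufa4l2. The block added Sdhb (adjusted p = 0.0291), Uqcrc2 (0.042), Cox5b (0.0401), Atp5j (0.0263), Ndufa4l2 (0.0447) and mt-Atp8 (0.0409). Without scaling factors between libraries the calls were 2 higher and 7 lower, and of all 17103 genes 1041 were called higher and 1476 lower. The calls also rested on single libraries: their number was 12 without arterial replicate 1, 4 without venous replicate 1, 3 without endocardial replicate 2 and 1 without endocardial replicate 3. Over all genes, 1181 were called higher and 1198 lower of 17103 in the main fit. In the same order of libraries left out, they were 1160 and 1171 of 18688, 1036 and 1055 of 19105, 859 and 946 of 19211 and 867 and 1038 of 19208. Ndufb10 was called in 8 of the 9 fits with 1 library left out (adjusted p 0.00746 to 0.0724) and lost without endocardial replicate 3. mt-Nd1 and mt-Nd4 were called in 7 of 9, lost without endocardial replicate 2 or 3 (adjusted p up to 0.0945 and 0.0818), as was summed mt-Co2 (up to 0.0763). Atp5b was lost without arterial replicate 2 or endocardial replicate 2 (up to 0.178), and Cox5a without endocardial replicates 2 or 3 or venous replicate 1 (up to 0.0933). Cox6b1 was called in 1 of 9 (without arterial replicate 1) and mt-Nd4l in 3 (without arterial replicate 1, endocardial replicate 1 or venous replicate 3).

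Among the nuclear members, and with no test of one complex against another, complex IV had 11 of 12 tested members lower in the endocardial libraries (median log2 difference -0.23), complex V 14 of 17 (-0.29), complex III 7 of 8 (-0.17) and complex I 27 of 38 (-0.13). Complex II had 1 of 4 lower: Sdhb, beside Sdhc at 0.47 and the flavoprotein Sdha at 0.06, neither past the threshold. A list of 15 core subunits held those with a catalytic site or redox centre and others without, such as Ndufs3, Uqcrc1, Uqcrc2 and Atp5c1. Of these 15, 12 were lower, the median was -0.31 and 1 (Atp5b) was called. The complex I subunits of that list that were not lower were Ndufs3 at 0.39 (SE 0.19, adjusted p = 0.22) and Ndufv1 at 0.01 (SE 0.20, adjusted p = 0.99). The Rieske iron-sulfur protein of complex III, Uqcrfs1, differed by 0.00, with an SE of 0.22.

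Ndufa4l2 had the largest positive difference of a tested nuclear member. It is a paralogue of Ndufa4 best known as a target of hypoxia-inducible factor. It was at 0.221, 1.44 and 0.0734 CPM in arterial replicates 1, 2 and 3, 0.826, 2.59 and 1.69 CPM in venous and 3.43, 4.53 and 8.26 CPM in endocardial: every endocardial library was above every coronary one, at low counts. The endocardial minus coronary log2 difference was 2.43 (SE 0.84, adjusted p = 0.0682), called with the batch block (adjusted p = 0.0447). Ndufa4 itself, named with complex I and now placed with complex IV, was at 8.09, 15.2 and 4.55 CPM in arterial replicates 1, 2 and 3, 22, 19.5 and 9.2 CPM in venous and 7.32, 13.2 and 15.2 CPM in endocardial, with overlapping groups and a difference of -0.07 (SE 0.40, adjusted p = 0.949).

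**Figure D4:**
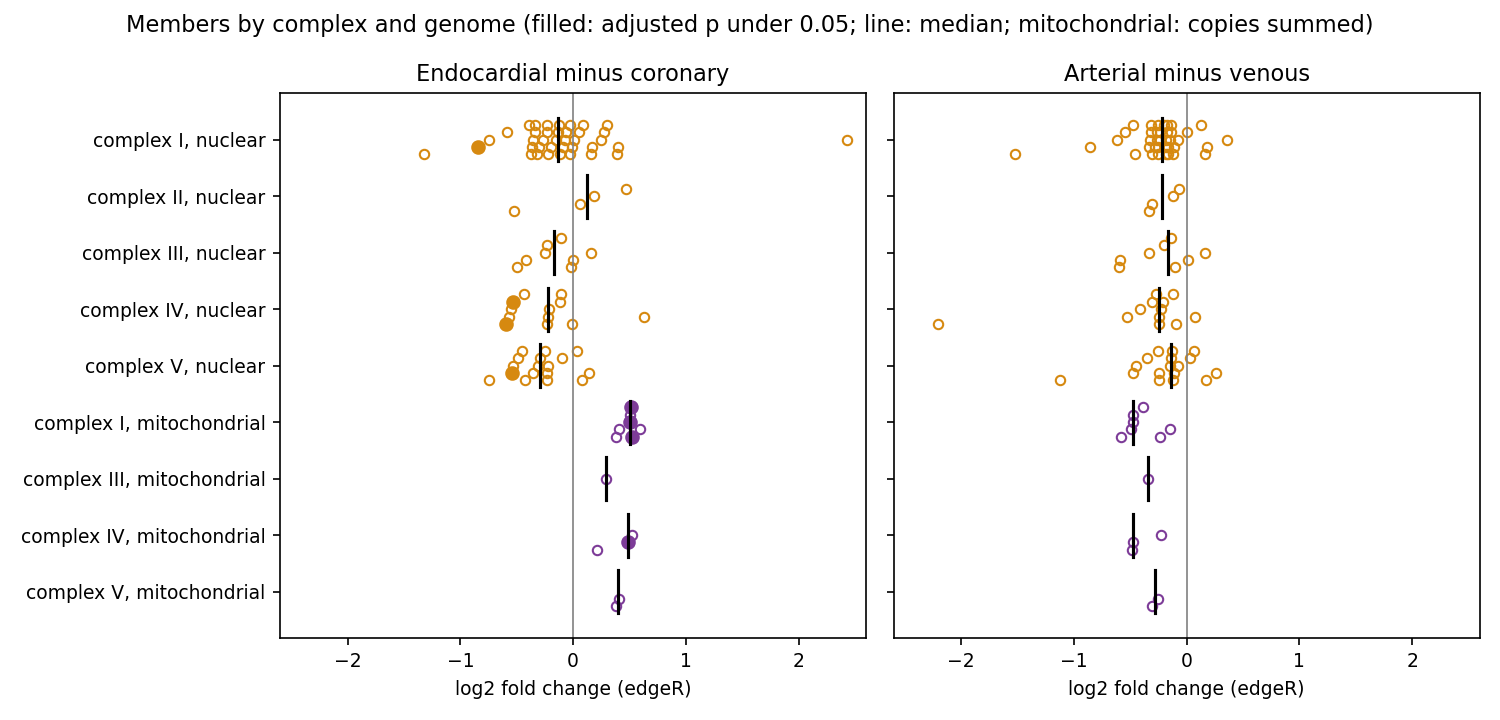
Log2 fold change (x axis) of each tested member for endocardial minus coronary (left) and arterial minus venous (right), in rows by complex and genome; filled points have an adjusted p under 0.05, black lines are medians, and mitochondrial members have their copies summed. In the left panel the mitochondrial rows lie to the right of 0 and most nuclear points to the left, while in the right panel the points of both genomes lie mostly to the left and none is filled.

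The contrast was also split by coronary population. The splits share the endocardial libraries and are given side by side; the test of their difference is the arterial-venous comparison, in which edgeR called no member. Between arterial and endocardial libraries 6 members were called (11.7% of all genes tested): Ndufb10 was higher in arterial libraries (5.92% of all genes were), at 0.84 (SE 0.26, adjusted p = 0.043), and mt-Nd1, mt-Nd2, mt-Nd4, mt-Nd4l and mt-Nd5 were lower (5.75% of all genes). mt-Nd1 had a log2 difference of -0.79 (SE 0.15, adjusted p = 0.00162) and mt-Nd4l of -0.76 (SE 0.19, adjusted p = 0.0157). The nuclear median was 0.10 and the mitochondrial median -0.63, against 0.01 over all genes. With copies summed 9 mitochondrial members were called lower in arterial libraries (11.7% of all genes were called in either direction), among them mt-Co2 at -0.72 (SE 0.14, adjusted p = 0.00158), mt-Atp6 at -0.57 (SE 0.16, adjusted p = 0.0319), mt-Nd3 at -0.76 (SE 0.21, adjusted p = 0.0236) and mt-Co3 at -0.77 (SE 0.23, adjusted p = 0.048). Every one of the 13 was lower, by 0.33 to 0.79.

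Only 2 of these arterial-endocardial calls were made without each library in turn: mt-Nd1 in 9 of the 9 fits with 1 library left out (adjusted p 0.00052 to 0.0151) and summed mt-Co2 in 9 of the 9 fits with 1 library left out (adjusted p 0.000826 to 0.0146). mt-Nd2, mt-Nd4, mt-Nd4l and mt-Nd5 were lost without arterial replicate 2 or 3 and without 1 or both of endocardial replicates 2 and 3 (adjusted p up to 0.124, 0.0713, 0.0694 and 0.11), as was summed mt-Atp6 (up to 0.142). Summed mt-Nd3 and mt-Co3 were also lost without arterial replicate 1 (up to 0.113 and 0.205), and mt-Co3 in addition without venous replicate 1 or 2. Ndufb10 was called in 1 of the 9 fits with 1 library left out (adjusted p 0.0176 to 0.264), the one without arterial replicate 3. The number called was 2 without arterial replicate 2 or 3 or endocardial replicate 3, and 3 without endocardial replicate 2. Over all genes, 1012 were called higher and 984 lower of 17103 in the main fit. In the same order of libraries left out, they were 705 and 802 of 19176, 858 and 795 of 18628, 890 and 746 of 19208 and 816 and 740 of 19211. Without scaling factors 3 were higher and 3 lower in arterial libraries, and of all 17103 genes 1256 were called higher and 861 lower.

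Between venous and endocardial libraries 4 members were called (10.2% of all genes tested), all nuclear and all higher in venous libraries (5.81% of all genes were higher). Cox5a differed by 0.71 (SE 0.19, adjusted p = 0.022), Atp5b by 0.60 (SE 0.17, adjusted p = 0.0329), Sdhb by 0.68 (SE 0.21, adjusted p = 0.0461) and Ndufb10 by 0.84 (SE 0.26, adjusted p = 0.0467). The nuclear median was 0.34 and the mitochondrial median -0.21, against -0.10 over all genes. Higher in venous libraries in all 3 batches were 35 of the 79 nuclear members (44.3%, against 22.4% of all genes). In the fit to all 9 libraries edgeR called none of the 13 mitochondrial members, at deposited counts or with copies summed (2 and 1 had an unadjusted p under 0.05, beside 21.9% of all genes). As deposited, mt-Atp6 was called higher in venous libraries by DESeq2 (adjusted p = 0.00219; 13.8% of all genes called), by edgeR fitted to the compared populations only (0.019) and by edgeR without arterial replicate 1 (0.0304). With its copy it was at -0.26 (SE 0.16, adjusted p = 0.406), the opposite direction. Without arterial replicate 1 mt-Nd4 was also called, lower in venous libraries (0.0478). All 13 were lower in venous libraries with copies summed. Cox5a and Atp5b were called in 5 of the 9 fits with 1 library left out (adjusted p up to 0.157 and 0.169), Sdhb in 3 (up to 0.239) and Ndufb10 in 2 (up to 0.148). No member was called when venous replicate 1 or 3 or endocardial replicate 2 was left out. The number was 1 without venous replicate 2, 2 without arterial replicate 2 or endocardial replicate 3, and 9 without arterial replicate 1. Over all genes, 993 were called higher and 759 lower of 17103 in the main fit. In the same order of libraries left out, they were 767 and 572, 668 and 462, 809 and 539, 779 and 531, 920 and 735, 897 and 565, and 1056 and 815, of 18688 to 19366 genes tested.

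Between arterial and venous libraries no member was called by edgeR's quasi-likelihood test, beside 1.07% of all genes tested (0.31% higher and 0.76% lower in arterial libraries). At an unadjusted p under 0.05 there were 7 members, all lower in arterial libraries and 6 of them mitochondrial. They were 7.61% of the 92 tested, below the 8.48% of all genes at that threshold. By genome they were 46.2% of the 13 mitochondrial members and 1.27% of the 79 nuclear ones. DESeq2 called 2 (2.16% of all genes), mt-Atp6 and mt-Nd1, both lower. Of the 92 tested members 81 (88%, against 47.3% of all genes) were lower in arterial libraries, and so were all 13 mitochondrial ones. The median was -0.21 over nuclear and -0.47 over mitochondrial members (-0.39 with copies summed), against 0.03 over all genes. Within batches 1, 2 and 3 the nuclear median was -0.02, -0.26 and -0.34 and the mitochondrial one 0.00, -0.68 and -0.46, so batch 1 showed next to no difference. In the mitochondrial shares given above, arterial replicate 1 lay beside the venous libraries and apart from arterial replicates 2 and 3.

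mt-Nd1 had the smallest adjusted p among the members, 0.104, with a log2 difference of -0.58 and every arterial library below every venous one; without endocardial replicate 1 it was called, at 0.0494. mt-Nd2 was called without arterial replicate 1 (adjusted p = 0.0171). mt-Atp6 as deposited, at 14.6, 60.5 and 38.4 CPM in arterial replicates 1, 2 and 3, 204, 220.1 and 192 CPM in venous and 51.4, 42.3 and 113 CPM in endocardial, had the largest difference, -2.44 (SE 0.57, adjusted p = 0.175); with its copy, at 5510.2, 3461 and 3710.0 CPM in arterial replicates 1, 2 and 3, 5590.1, 5179 and 4962 CPM in venous and 5852, 6746 and 6181 CPM in endocardial, the difference was -0.31 (SE 0.16, adjusted p = 0.65). Among nuclear members 9 of 79 lay below all venous libraries in every arterial library (11.4%, against 8.52% of all genes), among them Cox6a1 and Sdhc, and 1 lay above, Ndufv3 (1.27%, against 8.78%). Atp5g2 had a log2 difference of -1.12 (SE 0.74, adjusted p = 0.797), and with the batch as a block it was called (adjusted p = 0.0198; 1.32% of all genes were). In each batch the arterial library was below the venous one.

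The mitochondrial to nuclear ratio also placed arterial below venous libraries, without overlap, though by less than the gap to the endocardial ones: the lowest venous value with copies was 6.81 and the highest arterial 6.73. Fibroblast and cardiomyocyte marker sums were likewise lower in every arterial than in every venous library, and mural and erythroid sums higher; their part was not tested.

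Genes around the chain were taken from lists of their own. Of the 13 listed regulators of respiratory genes, 3 (23.1%) were called between endocardial and coronary libraries, beside the 13.9% of all genes. Gabpa, the DNA-binding subunit of an ETS factor, was at 146, 158 and 124 CPM in arterial replicates 1, 2 and 3, 180.3, 142 and 175 CPM in venous and 112, 77.6 and 73.8 CPM in endocardial. All endocardial libraries were below all coronary ones, by -0.81 (SE 0.17, adjusted p = 0.00379) on the log2 scale. The ETS letters shown above are common to the family, and binding of GABPA to them was not tested. Its neighbour Atp5j, the coupling factor 6 subunit of ATP synthase, differed by -0.53 (SE 0.22, adjusted p = 0.136), called with the batch block (0.0263). The coactivator Ppargc1a, which drives mitochondrial biogenesis, was at 4.34, 3.85 and 5.65 CPM in arterial replicates 1, 2 and 3, 7.44, 4.13 and 3.58 CPM in venous and 14, 13.6 and 8.06 CPM in endocardial, higher in endocardial libraries by 1.30 (SE 0.39, adjusted p = 0.0349). Its partner receptor Esrrg was at 3.09, 2.87 and 4.55 CPM in arterial replicates 1, 2 and 3, 1.53, 0.185 and 1.07 CPM in venous and 9.91, 7.55 and 9.07 CPM in endocardial, higher by 2.28 (SE 0.57, adjusted p = 0.0108). Ppargc1a and Esrrg thus rose while Gabpa fell. Gabpa and Esrrg were called in 9 of 9 fits with 1 library left out (adjusted p up to 0.0319 and 0.0399), and Ppargc1a in 3, lost without arterial replicate 1 or 2, endocardial replicate 1 or 2 or venous replicate 2 or 3 (up to 0.157). Nrf1 differed by -0.13 (SE 0.21, adjusted p = 0.786) and Tfam, which packages and transcribes mitochondrial DNA, by -0.19 (SE 0.19, adjusted p = 0.623).

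None of the 19 listed genes of mitochondrial transcription, RNA stability and replication was called between endocardial and coronary libraries by edgeR (1 had an unadjusted p under 0.05, as did 24.6% of all genes) or DESeq2 (which called 17% of all genes). Of the 50 assembly factors of complexes I to V none was called by edgeR (4 under 0.05) and 1 by DESeq2, Bcs1l of complex III, higher in endocardial libraries. Of the 9 tested subunits and carriers outside the symbol rule all 9 were lower in endocardial libraries, with a median of -0.29 and none called by edgeR (2 under 0.05); Cyc1, the haem subunit of complex III, at -0.84 (SE 0.28, adjusted p = 0.0612), was called by DESeq2. Of the 13 genes of the citric acid cycle 11 were lower, with a median of -0.15, and Idh3a, the catalytic subunit of NAD-linked isocitrate dehydrogenase, was called at -0.70 (SE 0.20, adjusted p = 0.0259), though not without arterial replicate 2, endocardial replicate 2 or 3 or venous replicate 3 (up to 0.129). Between arterial and venous libraries no gene of these lists was called by edgeR's test or DESeq2; at an unadjusted p under 0.05 there were 1 regulator, 1 complex I assembly factor and 1 gene of mitochondrial transcription.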

How the data were processed

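RNA of 9 libraries was sequenced as polyA RNA in single reads; the labels' protocols name a New England Biolabs and a NuGEN kit without saying which served which step. The authors deposited 1 table of expected counts per gene, made with RSEM 1.2.3 on GRCm38 after CASAVA 1.8.2 and cutadapt 1.3, per the submitters' processing notes; the strand setting is not given in the sources used here. Of the deposited values above 0, 45.5 percent were not whole, and all were rounded to whole numbers here. RSEM divides reads that fit several transcripts, which bears on members with near-identical copies. No table column was left without a sample.

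Symbols and gene coordinates (GRCm38) came from GENCODE M21. Genes passing edgeR's filter (minimum count 10; 17103 genes) were fitted in edgeR 4.0.16 (R 4.3.3) with TMM scaling, 1 mean per population over all 9 libraries and a robust quasi-likelihood F test; p-values were adjusted over all genes (threshold 0.05). "Coronary" averages the arterial and venous log2 means. The SE of an edgeR difference is its absolute log2 value divided by the square root of its F statistic. Per-gene levels are counts per 1000000 after TMM, per kilobase over merged exons where stated; shares use unscaled totals. Near-identical copies were transcripts aligned by BLAST+ at 95 percent identity or more over 150 bases or more, in the same sense and over 90 percent of the shorter transcript. The fit was tested on simulated counts.

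Replicate numbers are the labels' batch numbers and so pair the libraries. Deviations from the population means correlated between same-numbered libraries at 0.121 to 0.201 (batch 1), 0.0684 to 0.156 (batch 2) and -0.125 to 0.0942 (batch 3). The main fit has no block; the block, other scalings, no filter, DESeq2 1.42.0, fewer populations and leaving out each library were alternatives, and summing copies was added after seeing the data. Named members were those called, the 13 mitochondrial ones, isoform pairs, listed core subunits and, per complex, the most abundant and most different. Ndufb11, Ndufv3, Cox5b, Atp5j and Bcs1l were named after their values or sequences were seen. The members and lists were chosen with earlier results of these data known. Promoters are RefSeq GRCm38.p6, found for 66 nuclear members.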

Additional observations from a re-analysis of the deposited data

How the results depend on the processing

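The medians of nuclear and mitochondrial members kept their direction in all 4 comparisons under each alternative run, except the nuclear median between arterial and endocardial libraries. With 1 library left out, nuclear medians ran from -0.41 to -0.14 for arterial minus venous, -0.27 to -0.08 for endocardial minus coronary, -0.04 to 0.17 for arterial minus endocardial and 0.24 to 0.41 for venous minus endocardial; mitochondrial ones ran from -0.64 to -0.33, 0.32 to 0.49, -0.78 to -0.54 and -0.24 to -0.11. Over all genes tested in those fits, the medians ran from 0.01 to 0.08, -0.05 to 0.14, -0.03 to 0.12 and -0.17 to 0, in the same order. The mitochondrial venous minus endocardial median of -0.21 was -0.14 without scaling factors, -0.17 without a filter and -0.26 with copies summed. Numbers of calls moved more. For arterial minus venous (0) they were 3 without a filter, 2 with DESeq2, 1 with the replicate block and 0 to 1 with a library left out. Without a filter 179 of all 28951 genes were called higher and 260 lower. DESeq2 called 2.16% of all genes and the block 1.32%. For endocardial minus coronary (7) they were 13, 11 and 12, and 1 to 12 with a library left out. Without a filter 1327 of all 28951 genes were called higher and 1449 lower, beside 13 of the 98 members tested there. In that setting the members' share of calls was above that of all genes, unlike in the main fit. DESeq2 called 17% of all genes and the block 15.9%. For arterial minus endocardial (6) they were 10 with copies summed (11.7% of all genes) and 2 to 9 with a library left out. For venous minus endocardial (4) they were 2 with DESeq2's size factors, 7 without a filter, with DESeq2 and with only the populations compared, and 0 to 9 with a library left out. Of all genes, 932 were called higher and 812 lower of 17103 with DESeq2's size factors. The numbers were 1271 and 924 of 28951 without a filter and 950 and 844 of 15064 with only the populations compared. DESeq2 called 13.8%. Where a number of calls moved, the cause was not tested. Of the calls given above, the block ended 2, mt-Nd4l (endocardial minus coronary) and summed mt-Co3 (arterial minus endocardial, adjusted p = 0.0898). Most calls among the members were lost when some single library was left out. Cox6a2, Cox7b2, Cox8b and Cox8c were below the count filter at this depth and were not tested.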
